A study of Mus musculus with 28 samples.

Results

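A list of 40 genes of the cell cycle was followed by RNA-seq in 28 libraries of dendritic cells (BMDCs) cultured from mouse bone marrow. The genes were taken as a list by name: 24 act in mitosis and 16 in DNA replication, out of 24995 genes kept from the deposited values. Each genotype, WT, RelBko, IFNARko and IFNARko;RelBko, on C57BL/6, gave 7 libraries. One library per genotype was a control, and 6 were taken at 1, 3 and 8 h after CpG ODN 1668 at 0.1 µM or after high molecular weight Poly(I:C). The dose of Poly(I:C) is uncertain, because the titles state 10 ng/mL whereas the treatment protocol states 10 µg/mL. In every group the marrow was cultured in GM-CSF (20 ng/ml) plus IL-4 (10 ng/ml), and the controls carry a time of 1 h only. RelB belongs to the NF-kB family of transcription factors, IFNAR binds type I interferon, CpG DNA is read by TLR9, and Poly(I:C) mimics double-stranded RNA. Each of the 28 groups was 1 library, and the labels do not say whether libraries came from separate mice or cultures. The p-values below therefore measure only the spread between these samples, with conditions or genotypes serving as repeats. The labels give neither the alleles nor the sex of the mice.

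A dividing cell first licenses its replication origins with the loading factors Cdc6 and Cdt1 and the Mcm helicase. It then makes deoxynucleotides and copies its DNA in S phase, and later builds a spindle, separates its chromosomes and splits. Genes for replication are classically controlled by E2F factors, and genes for mitosis by the DREAM and MuvB complexes, B-Myb and FoxM1. Control of mitotic genes runs through a short promoter element named the cell cycle genes homology region (CHR) and through CCAAT boxes. In GM-CSF cultures of bone marrow, precursors divide while they become dendritic cells, and the mature cells largely leave the cell cycle.

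Levels are in CPM, the reads of a gene scaled to a common library total, obtained by subtracting 1 from the deposited normalised value. CPM is not scaled by gene length, so levels are compared between libraries and not between genes. Depth ran from 3269933 to 42227938 reads per library, and the 2 shallowest libraries were the CpG 8 h libraries of IFNARko and of IFNARko;RelBko, the latter with 3814916 reads. All 40 genes passed the filter of at least 1 CPM in at least 3 libraries in every fit. The lowest member count was 4 reads, and 12 of 1120 values rested on fewer than 10 reads. Ifnar1 transcript ran from 108.7 to 163 CPM in the 14 libraries with an intact receptor and from 52.0 to 104 CPM in the 14 libraries of the null genotypes. The labels do not say which part of the gene is missing. Relb transcript ranges overlapped between RelBko (69.2 to 156 CPM) and WT (93.9 to 187 CPM), so the level of that transcript does not check the label. Xist ranged between 445 and 832 CPM in WT, between 713 and 1042 CPM in IFNARko;RelBko, and under 1 CPM in RelBko and IFNARko. The averaged IFNAR and RelB comparisons each set 1 genotype with high and 1 with low Xist against 1 of each, whereas a comparison of single genotypes does not. The difference of the IFNAR effect between RelB states sets WT and IFNARko;RelBko, with high Xist, against RelBko and IFNARko, with low Xist. It cannot be told apart from a difference that goes with Xist.

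Other cell types moved with genotype, and their part in the results was not tested. Of 10 dendritic markers, 9 reached 1 CPM and Cd209a did not, and they summed to between 8694 and 12250 CPM in WT, with ranges of 10760 to 13300 CPM (RelBko), 12700 to 13810 CPM (IFNARko) and 9007 to 9962 CPM (IFNARko;RelBko). The 11 macrophage markers found summed to between 2904 and 4865 CPM in WT, with ranges of 1290 to 2573 CPM (RelBko), 785 to 1299 CPM (IFNARko) and 880.3 to 1074 CPM (IFNARko;RelBko). Gpnmb alone gave 1941 of 3019 CPM in the WT control and 302 of 873 CPM in the IFNARko control. C1qb measured 102 and 96.6 CPM in the same 2 controls. In the limma fits below, 8 of the 11 were called lower and 0 higher in IFNARko than in WT, against 13.8% and 42.6% of all genes. The 9 T and NK cell markers summed to between 59.2 and 142 CPM in WT, with ranges of 76.7 to 115 CPM (RelBko), 355 to 624 CPM (IFNARko) and 31.4 to 44.8 CPM (IFNARko;RelBko), with Ncr1 under 1 CPM everywhere. Gzma alone gave 75.0 of 120 CPM in the WT control and 341.5 of 539 CPM in the IFNARko control, where Cd3e measured 5.02 and 26.4 CPM. The 6 progenitor markers summed to between 27.2 and 48.8 CPM in WT, with ranges of 51.8 to 75.9 CPM (RelBko), 44.6 to 59.0 CPM (IFNARko) and 124 to 154 CPM (IFNARko;RelBko). In the limma fits below, 5 of 5 tested were called higher in IFNAR-null than in IFNAR-intact cells, against 53.9% of all genes. Between IFNARko and WT 3 of the 5 were, against 42.6%. The 5 did not move alike, and their IFNARko minus WT differences ran from -0.27 to 1.59 on the log2 scale, with a median of 0.31. Among them Myb ran from 2.06 to 3.93 CPM (WT), 3.31 to 6.05 CPM (RelBko), 8.56 to 15.3 CPM (IFNARko) and 21.5 to 37.4 CPM (IFNARko;RelBko). Kit measured 13.6, 6.68, 8.49 and 14.4 CPM in the WT, RelBko, IFNARko and IFNARko;RelBko controls. The 5 mast cell markers found stayed at or under 5.88 CPM in WT and RelBko and reached 20.9 to 38.8 CPM in the null genotypes, with Tpsb2 under 1 CPM everywhere. Granulocyte precursor markers summed to between 66.6 and 126 CPM in WT, with ranges of 186 to 304 CPM (RelBko), 69.7 to 186 CPM (IFNARko) and 37.9 to 61.5 CPM (IFNARko;RelBko), all 9 reaching 1 CPM. These markers did not move together. In the limma fits below, 3 of 8 tested were called higher and 5 lower in IFNARko;RelBko than in RelBko, against 44.9% and 14.7% of all genes. Mpo measured 0.574, 1.48, 3.73 and 15.4 CPM in the WT, RelBko, IFNARko and IFNARko;RelBko controls, and S100a9 45.5, 137, 71.7 and 3.40 CPM. The 5 B cell markers stayed at or under 14.4 CPM, and the erythroid markers Klf1, Alas2 and Slc4a1 were under 1 CPM everywhere. The erythroid globin gene Hbb-bt stood at 0 to 0.634 CPM in WT and reached 3.40 CPM in RelBko, 2.36 CPM in IFNARko and 3.504 CPM in IFNARko;RelBko. The 5 stromal markers stayed at or under 2.11 CPM in 3 genotypes and summed to 21.2 to 39.4 CPM in IFNARko;RelBko. In bulk RNA, a larger share of dividing cells and more transcript in each dividing cell cannot be told apart.

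The promoters of the 2 groups of genes differ in the letters they carry, which is shown here because mitotic and replication genes are kept apart below. Windows from 250 bases before to 50 bases after the start were taken from RefSeq on GRCm38.p6, and 20 of 24 mitotic and 13 of 16 replication genes were matched by symbol. Kif20a, Aurkb, Ccna2, Tpx2, Ccne2, Gins2 and Mcm4 were not matched. Words were searched on both strands. For the CHR the word was TTTGAA, with TTTAAA as its variant, and for the CCAAT box it was CCAAT. For E2F the word was TTGGCGC, with variants that carry TTCGCGC, or else TTCCCGC, in its place. The CCAAT and E2F words can share letters, as they do in Ccnb1, and E2F and CHR words shared letters in 0 of 35 member windows. A CHR word was present in 90% of the matched mitotic genes, in 30.8% of the replication genes and in 30.6% of all 27025 genes with a window. A CCAAT box was present in 90%, 61.5% and 41.1%, and both words together in 85%, 23.1% and 12.2%, in the same order. An E2F word was present in 20% of the mitotic genes, 53.8% of the replication genes and 9.2% of all genes. These shares are descriptions of letters and not of bound factors. The stretches of promoter below end at the last base before the start and run 5′ to 3′ on the strand of the gene. Capitals mark the words found, on either strand, so that ATTGG is a CCAAT box and TTCAAA a CHR word read on the other strand. The first 4 belong to mitotic genes whose levels are described below.
Ube2c (chr2:164769809-164769928, plus strand): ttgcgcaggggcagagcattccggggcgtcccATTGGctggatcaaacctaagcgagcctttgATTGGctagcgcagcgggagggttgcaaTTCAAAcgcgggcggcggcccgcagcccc
Ccnb1 (chr13:100786487-100786606, minus strand): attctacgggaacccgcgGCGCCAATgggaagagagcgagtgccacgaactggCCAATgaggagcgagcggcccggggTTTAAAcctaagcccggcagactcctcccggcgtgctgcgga
Kif11 (chr19:37376262-37376381, plus strand): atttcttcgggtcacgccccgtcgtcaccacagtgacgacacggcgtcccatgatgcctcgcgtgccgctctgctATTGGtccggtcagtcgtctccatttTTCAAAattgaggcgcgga
Cdk1 (chr10:69352913-69353032, minus strand): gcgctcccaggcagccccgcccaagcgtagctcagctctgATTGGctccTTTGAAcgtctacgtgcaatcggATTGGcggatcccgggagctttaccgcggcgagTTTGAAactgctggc
The next 4 belong to replication genes, of which Pcna is the member that followed genotype least.
Mcm6 (chr1:128359706-128359825, minus strand): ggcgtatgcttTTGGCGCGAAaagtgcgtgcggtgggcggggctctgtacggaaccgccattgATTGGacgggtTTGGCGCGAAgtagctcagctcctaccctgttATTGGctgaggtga
Mcm5 (chr8:75109339-75109508, plus strand): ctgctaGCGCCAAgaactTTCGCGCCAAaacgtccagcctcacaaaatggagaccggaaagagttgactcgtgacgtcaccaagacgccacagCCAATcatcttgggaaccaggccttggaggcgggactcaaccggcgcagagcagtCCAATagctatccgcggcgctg
Rrm1 (chr7:102441575-102441694, plus strand): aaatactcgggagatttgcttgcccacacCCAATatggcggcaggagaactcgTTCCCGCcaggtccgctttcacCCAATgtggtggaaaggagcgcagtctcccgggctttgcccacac
Pcna (chr2:132253181-132253300, minus strand): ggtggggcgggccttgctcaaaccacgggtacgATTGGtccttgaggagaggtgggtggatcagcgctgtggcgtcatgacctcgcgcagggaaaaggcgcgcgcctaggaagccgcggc
The 4 mitotic stretches each hold at least 1 CHR word and 1 CCAAT box, with a second CHR word in Cdk1, and Ccnb1 holds an E2F word as well. The Mcm6, Mcm5 and Rrm1 stretches hold E2F words and no CHR word, and the Pcna stretch holds a single CCAAT box. These stretches are shorter than the windows searched. Upstream of the stretches shown, the Cdk1 window also holds E2F words and the Mcm5 window also holds a CHR word. Neither gene therefore lacks the word that its stretch does not show.

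Mitotic and replication transcripts were higher without IFNAR, in unstimulated cells and at every time after stimulation. The 24 mitotic genes summed to 276 CPM in the WT control and 315 CPM in the RelBko control, against 1020 CPM in IFNARko and 1080 CPM in IFNARko;RelBko. That was 3.70-fold higher in IFNARko than in WT and 3.43-fold higher in IFNARko;RelBko than in RelBko. The 16 replication genes summed to 566 and 613 CPM in the WT and RelBko controls and to 1083 and 1125 CPM in the IFNARko and IFNARko;RelBko controls, 1.92-fold and 1.84-fold higher. Sums weigh genes by level, and the replication sums include Pcna, which followed genotype least. Taken gene by gene, the median control ratios were 2.18 and 2.10 for replication genes and 4.11 and 3.36 for mitotic genes. The summed mitotic level divided by the summed replication level lay between 0.414 and 0.616 in the 14 libraries with the receptor and between 0.942 and 1.28 in the 14 without it.

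**Figure D1:**
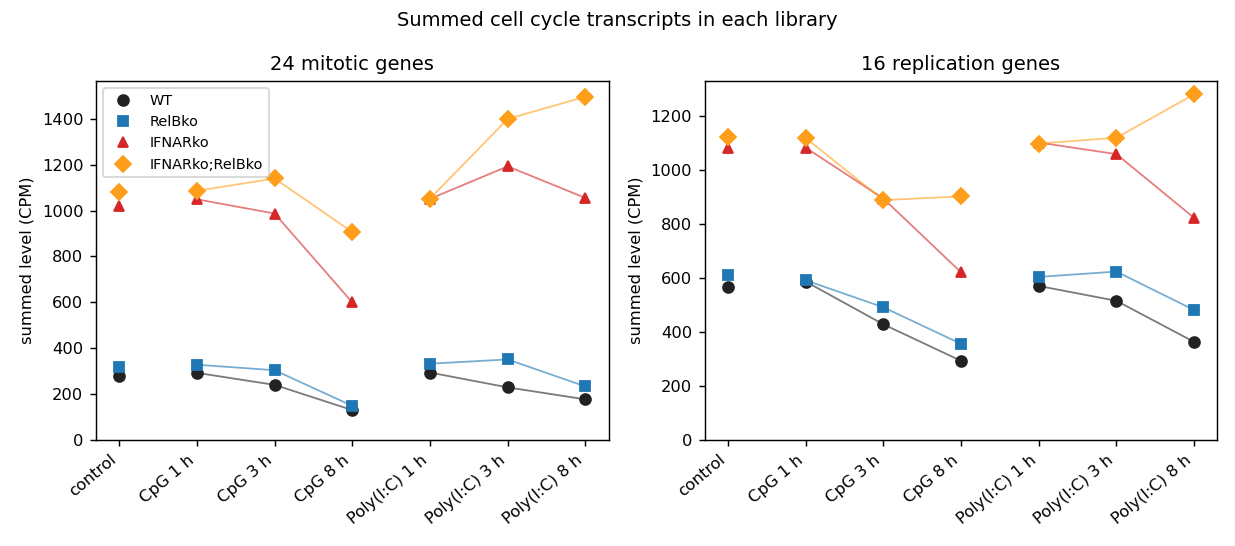
Summed level in CPM (vertical axis, from 0) of the 24 mitotic genes (left) and the 16 replication genes (right) in each of the 28 libraries, with 1 point per library, colours and shapes for the 4 genotypes, and lines joining the times of a stimulus. The IFNARko and IFNARko;RelBko points lie above the WT and RelBko points in each condition, and in WT and RelBko both sums are lowest at CpG 8 h.

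In limma fits of log2(CPM + 1) over all 28 libraries, with condition as a term, 39 of 40 genes were higher in IFNAR-null than in IFNAR-intact cells and 0 were lower, at a Benjamini-Hochberg adjusted p under 0.05. Of all 12972 genes tested, 53.9% were called higher and 15.5% lower, so the size of the difference is given beside the count. The median difference was 1.89 on the log2 scale over the 40 genes and 0.15 over all genes tested. Of the 40 genes, 34 were called at least 2-fold higher, 23 of them mitotic and 11 replication genes, against 3.01% of all genes tested. In 28 of the 40 genes the lowest of the 14 null libraries lay above the highest of the 14 intact libraries, against 1.9% of all genes tested, and 20 of those were mitotic. Within the same condition, 39 of the 40 were higher in 7 of 7 conditions both in IFNARko over WT and in IFNARko;RelBko over RelBko. Pcna was the exception both to the call and to this count by condition.

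Median differences were 2.13 for the mitotic genes and 1.18 for the replication genes, both on the log2 scale. The largest belonged to Cenpf, a kinetochore protein (2.77 ± 0.13, SE, adjusted p 6.641e-15, limma). It was followed by Kif11, the kinesin that pushes spindle poles apart (2.60 ± 0.08), Aspm, a spindle pole protein (2.60 ± 0.15), the S and G2 phase cyclin Ccna2 (2.58 ± 0.13) and the topoisomerase Top2a (2.55 ± 0.09). The smallest mitotic difference belonged to Tpx2, which activates Aurka on the spindle (0.88 ± 0.06). Among replication genes the range ran from Rrm2, the small subunit of ribonucleotide reductase (2.25 ± 0.11), to Pcna (0.02 ± 0.04, adjusted p 0.6952, limma), the sliding clamp of DNA polymerases that also serves DNA repair. The Mcm helicase subunits lay between Mcm3 at 1.04 ± 0.06 and Mcm7 at 1.62 ± 0.08. The deoxynucleotide enzymes apart from Rrm2 were Tyms at 0.92 ± 0.05, Rrm1 at 1.38 ± 0.06 and Tk1 at 1.86 ± 0.15. The licensing factors differed from each other, with Cdc6 at 1.56 ± 0.08 and Cdt1 at 0.71 ± 0.09. Gins2, a subunit of the replicative helicase complex, stood at 0.73 ± 0.06.

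**Figure D2:**
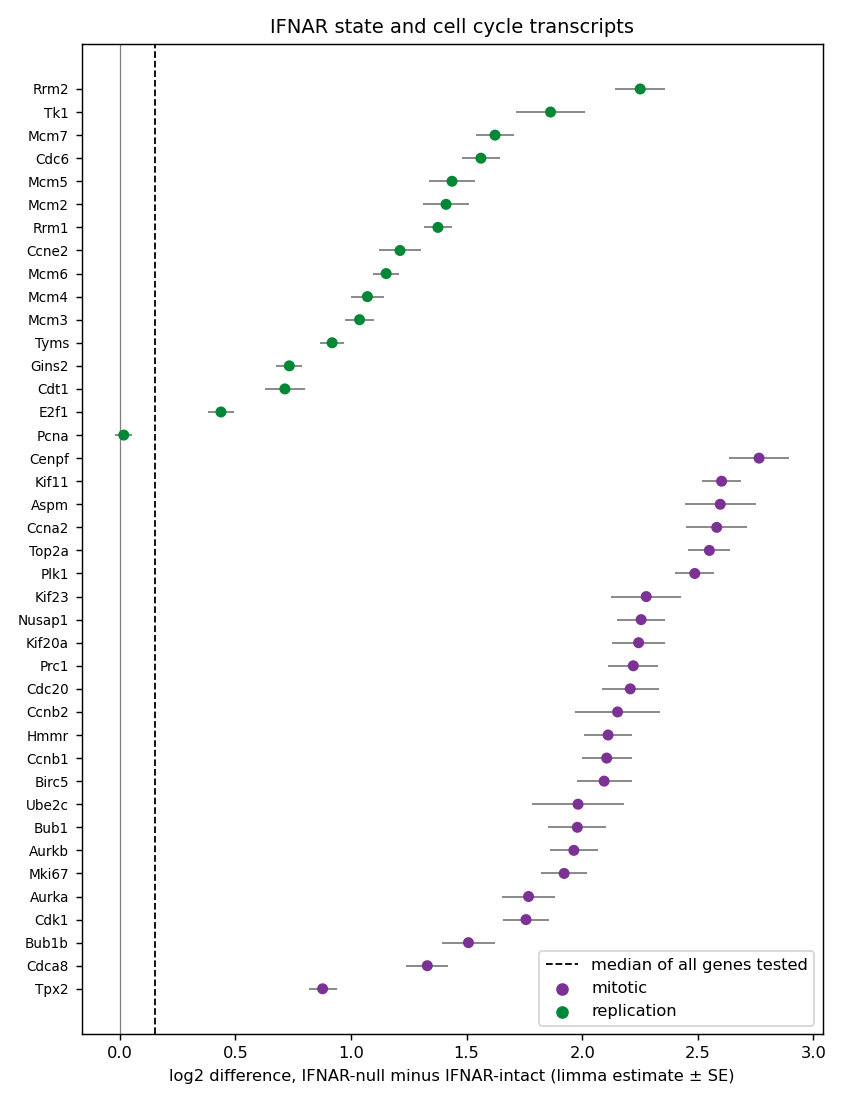
Difference between IFNAR-null and IFNAR-intact cells for each of the 40 genes (horizontal axis, limma estimate on log2(CPM + 1) ± SE over 28 libraries), in purple for mitotic and green for replication genes, with a dashed line at the median of all genes tested. The values run from 0.02 for Pcna to 2.77 for Cenpf, and only Pcna lies below the median of all genes, 0.15.

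The 2 simple comparisons that make up this average share no library. Between IFNARko and WT, 39 of 40 genes were called higher and 0 lower, against 42.6% and 13.8% of all genes tested, with a median difference of 2.01. Between IFNARko;RelBko and RelBko, 39 were called higher and 0 lower, against 44.9% and 14.7%, with a median of 1.82. Kif11 was higher by 2.71 ± 0.12 in the first and by 2.49 ± 0.12 in the second, and Plk1, a kinase of mitotic entry and spindle assembly, by 2.64 ± 0.12 in the second. The difference of the IFNAR effect between the RelB states passed the threshold in 0 of the 40 genes by limma, against 14.5% of all genes tested higher and 14.2% lower. At an unadjusted p under 0.05 there were 4 genes, and the voom fit called 6, all lower, which is a smaller IFNAR effect in the RelB-null background. The same contrast sets the genotypes with high Xist against those with low Xist, and the readings cannot be told apart.

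Single genes are given next as the level in every library, always in the order control, then 1, 3 and 8 h of CpG, then 1, 3 and 8 h of Poly(I:C). Mki67, a protein that coats mitotic chromosomes and the usual marker of proliferating cells, measured 49.3 CPM in the WT control, 38, 104 and 42.5 CPM after CpG and 41.7, 63.3 and 37.4 CPM after Poly(I:C). Mki67 measured 44.6 CPM in the RelBko control, 54.1, 113 and 31.3 CPM after CpG and 51.5, 78.5 and 47.2 CPM after Poly(I:C). The 14 IFNAR-null libraries lay higher, and the CpG 3 h library was the highest of its genotype in WT, RelBko and IFNARko;RelBko. Mki67 measured 207 CPM in the IFNARko control, 215, 251 and 134 CPM after CpG and 207, 254 and 209.5 CPM after Poly(I:C). It reached 159 CPM in the IFNARko;RelBko control, 179, 259 and 158 CPM after CpG and 175, 241 and 256 CPM after Poly(I:C). The lowest null library, IFNARko at CpG 8 h, stood above the highest intact one, RelBko at CpG 3 h.

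Ube2c is the ubiquitin-conjugating enzyme that works with the anaphase-promoting complex. Its level was 13.5 CPM in the WT control, 12.6, 5.59 and 1.09 CPM after CpG and 12.3, 6.34 and 1.82 CPM after Poly(I:C). The RelBko values were 16.2 CPM in the RelBko control, 16.8, 8.22 and 2.7 CPM after CpG and 15.2, 7.88 and 3.21 CPM after Poly(I:C). Both courses ended with the lowest values of the series for this gene, at or under 3.21 CPM at 8 h of either stimulus. IFNARko cells held 32.6 CPM in the IFNARko control, 29.6, 21.8 and 21.4 CPM after CpG and 28.5, 30.2 and 30.1 CPM after Poly(I:C). IFNARko;RelBko cells held 42.4 CPM in the IFNARko;RelBko control, 39.3, 32.3 and 22.3 CPM after CpG and 32.9, 38.1 and 38.1 CPM after Poly(I:C). The null libraries never came below 21.4 CPM, above the highest intact value of 16.8 CPM.

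Cdk1, the kinase that drives entry into mitosis, stood at 10 CPM in the WT control, 13.1, 7.65 and 5.4 CPM after CpG and 13.8, 5.84 and 5.05 CPM after Poly(I:C). RelBko gave 11.9 CPM in the RelBko control, 12.1, 8.58 and 5.99 CPM after CpG and 12.1, 12.1 and 7.45 CPM after Poly(I:C). All 14 values were at or under 13.8 CPM. Without the receptor Cdk1 stood at 31.2 CPM in the IFNARko control, 36.2, 25.4 and 18.6 CPM after CpG and 34.1, 29.6 and 28.5 CPM after Poly(I:C). With both genes knocked out it stood at 35.5 CPM in the IFNARko;RelBko control, 36.6, 32.6 and 35.1 CPM after CpG and 34.9, 41.7 and 42.8 CPM after Poly(I:C). Those 14 values were at least 18.6 CPM, and in IFNARko;RelBko the 8 h CpG value lay close to the control.

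Ccnb1, the B-type cyclin that partners Cdk1, was low throughout and measured 4.59 CPM in the WT control, 4.31, 1.46 and 0.71 CPM after CpG and 3.46, 1.62 and 1.12 CPM after Poly(I:C). In RelBko it measured 5.27 CPM in the RelBko control, 4.2, 2.32 and 0.749 CPM after CpG and 3.39, 3.48 and 2.38 CPM after Poly(I:C). The 8 h CpG values of those genotypes were the lowest in the series. Ccnb1 measured 12.9 CPM in the IFNARko control, 13.9, 12.4 and 7.03 CPM after CpG and 15.7, 13.5 and 13.7 CPM after Poly(I:C). It measured 17 CPM in the IFNARko;RelBko control, 17.6, 15.2 and 9.96 CPM after CpG and 14.7, 18.7 and 19.3 CPM after Poly(I:C). The lowest null value, 7.03 CPM, exceeded the highest intact value, 5.27 CPM.

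Aurka, the centrosomal mitotic kinase, had 5.45 CPM in the WT control, 8.62, 2.75 and 2.08 CPM after CpG and 5.82, 2.11 and 4.91 CPM after Poly(I:C). RelBko cells had 7.94 CPM in the RelBko control, 7.81, 4.47 and 3 CPM after CpG and 8.04, 5.31 and 6.31 CPM after Poly(I:C). Its intact values spread over 2.08 to 8.62 CPM. The IFNARko values were 16.7 CPM in the IFNARko control, 16.5, 15.9 and 10.1 CPM after CpG and 16, 19.8 and 21.4 CPM after Poly(I:C). IFNARko;RelBko cells had 20.3 CPM in the IFNARko;RelBko control, 23.9, 21.9 and 18.6 CPM after CpG and 20.3, 28.4 and 25.6 CPM after Poly(I:C). No null value was under 10.1 CPM.

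Cenpf and Tpx2 are the mitotic genes at either end of the IFNAR comparison. Cenpf had 3.87 CPM in the WT control, 5.07, 1.12 and 0.71 CPM after CpG and 3.62, 1.86 and 1.4 CPM after Poly(I:C). RelBko cells had 4.99 CPM in the RelBko control, 4.08, 1.79 and 0.749 CPM after CpG and 5.15, 4.98 and 3 CPM after Poly(I:C). The highest of these was 5.15 CPM. Cenpf had 23.6 CPM in the IFNARko control, 23.5, 17.9 and 11.3 CPM after CpG and 21.3, 29.8 and 27.8 CPM after Poly(I:C). It had 23.4 CPM in the IFNARko;RelBko control, 25.7, 25.2 and 17.8 CPM after CpG and 25, 40.8 and 33.5 CPM after Poly(I:C), so that the lowest null value, 11.3 CPM, was above every intact value.
Tpx2 had 31.7 CPM in the WT control, 31.7, 30.7 and 21.6 CPM after CpG and 31.9, 26.9 and 30.7 CPM after Poly(I:C). RelBko cells had 30 CPM in the RelBko control, 28.7, 36.1 and 27.7 CPM after CpG and 34.2, 31.8 and 23.3 CPM after Poly(I:C). Its levels kept within a narrower band than those of Cenpf. Tpx2 had 55.5 CPM in the IFNARko control, 61.9, 69.1 and 45 CPM after CpG and 52, 60.8 and 47 CPM after Poly(I:C). It had 50.6 CPM in the IFNARko;RelBko control, 52.6, 62.8 and 40.9 CPM after CpG and 50.1, 64.6 and 67.2 CPM after Poly(I:C). The groups still did not overlap, with 36.1 CPM the highest intact and 40.9 CPM the lowest null value.

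Among the replication genes, Pcna ran from 75.1 to 175 CPM and its groups overlapped. Pcna measured 142 CPM in the WT control, 152, 132 and 78.5 CPM after CpG and 143, 147 and 127 CPM after Poly(I:C). RelBko cells measured 157 CPM in the RelBko control, 151, 128 and 75 CPM after CpG and 147, 162 and 133 CPM after Poly(I:C). In all 4 genotypes the CpG 8 h library was the lowest. Pcna measured 175 CPM in the IFNARko control, 164, 143 and 79.8 CPM after CpG and 156, 155 and 128 CPM after Poly(I:C). It measured 146 CPM in the IFNARko;RelBko control, 145, 112 and 92.3 CPM after CpG and 133, 136 and 127 CPM after Poly(I:C). A separately listed pseudogene, Pcna-ps2, reached at most 0.944 CPM, and Ccnb2-ps at most 0.399 CPM. How reads shared with such copies were counted is not given in the sources used here.

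Mcm5, a subunit of the ring-shaped helicase that unwinds DNA, measured 37.3 CPM in the WT control, 36.8, 30.1 and 12.9 CPM after CpG and 35.7, 36.4 and 15 CPM after Poly(I:C). RelBko cells measured 41.8 CPM in the RelBko control, 39.6, 40 and 24 CPM after CpG and 40.6, 48.6 and 31.1 CPM after Poly(I:C). The WT values at 8 h of both stimuli were the lowest in the series. Mcm5 measured 95.6 CPM in the IFNARko control, 93.4, 82.1 and 54.1 CPM after CpG and 93.8, 98.1 and 74.4 CPM after Poly(I:C). It measured 93.3 CPM in the IFNARko;RelBko control, 90.5, 84.9 and 70.5 CPM after CpG and 90, 101 and 126 CPM after Poly(I:C). The highest intact value was 48.6 CPM and the lowest null value 54.1 CPM, and IFNARko;RelBko was highest at 8 h of Poly(I:C).

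Rrm2 measured 14.6 CPM in the WT control, 16.1, 9.46 and 4.17 CPM after CpG and 15.3, 13.6 and 6.31 CPM after Poly(I:C). RelBko cells measured 19.3 CPM in the RelBko control, 17.5, 14.3 and 8.09 CPM after CpG and 16.8, 21.6 and 11.7 CPM after Poly(I:C). No intact library exceeded 21.6 CPM. Rrm2 measured 72.5 CPM in the IFNARko control, 72.9, 66.1 and 39.5 CPM after CpG and 73.3, 71.5 and 60.2 CPM after Poly(I:C). It measured 69.3 CPM in the IFNARko;RelBko control, 69.3, 46.9 and 53.2 CPM after CpG and 58.8, 62.7 and 84.7 CPM after Poly(I:C). The lowest null library held 39.5 CPM.

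E2f1, the transcription factor that switches on replication genes, differed less and its groups overlapped. E2f1 measured 22.6 CPM in the WT control, 19.4, 13.8 and 14.3 CPM after CpG and 17.8, 21.3 and 16.7 CPM after Poly(I:C). RelBko cells measured 18.9 CPM in the RelBko control, 17.8, 14.1 and 14.2 CPM after CpG and 23, 20 and 19.2 CPM after Poly(I:C). The 3 h and 8 h CpG values were the lowest of both genotypes. E2f1 measured 26.5 CPM in the IFNARko control, 25.5, 14.7 and 15.9 CPM after CpG and 27.7, 26.3 and 21.8 CPM after Poly(I:C). It measured 25.7 CPM in the IFNARko;RelBko control, 27.9, 22.4 and 26.2 CPM after CpG and 28.1, 31.4 and 29.9 CPM after Poly(I:C). The IFNAR difference was 0.44 ± 0.06 on the log2 scale (adjusted p 1.291e-07, limma).

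Ccne2, a cyclin of S phase entry, measured 4.73 CPM in the WT control, 5.07, 5.33 and 3.15 CPM after CpG and 7.55, 4.72 and 3.65 CPM after Poly(I:C). RelBko cells measured 6.47 CPM in the RelBko control, 7.11, 5.18 and 3.15 CPM after CpG and 7.29, 10.4 and 4.55 CPM after Poly(I:C). One intact library, RelBko at 3 h of Poly(I:C), reached 10.4 CPM. Ccne2 measured 13.8 CPM in the IFNARko control, 15.6, 11.7 and 7.34 CPM after CpG and 18.7, 14.9 and 9.78 CPM after Poly(I:C). It measured 13.8 CPM in the IFNARko;RelBko control, 17.1, 11.5 and 9.7 CPM after CpG and 15.8, 17.1 and 21.8 CPM after Poly(I:C). Null values fell within the intact range at CpG 8 h in both genotypes and at Poly(I:C) 8 h in IFNARko.

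The other mitotic genes ranged over all 28 libraries as follows. Top2a ran from 15.9 to 261 CPM, and its intact maximum of 50.1 CPM lay below its null minimum of 119 CPM. Ccna2 ran from 1.92 to 81.8 CPM and Kif11 from 2.56 to 70.6 CPM, again without overlap. The chromosomal passenger genes Birc5, Aurkb and Cdca8 ran from 1.73 to 36.4, 2.06 to 47.4 and 6.06 to 46.5 CPM. Plk1 ran from 0.758 to 37.7 CPM, Aspm from 0.561 to 27.4 CPM and the checkpoint kinase Bub1 from 1.99 to 36.2 CPM. The spindle and midzone genes Kif20a, Prc1, Nusap1 and Hmmr ran from 2.51 to 54.3, 2.80 to 56.7, 3.13 to 49.5 and 1.87 to 32.1 CPM. The 4 mitotic genes whose groups overlapped were Ccnb2 (0.853 to 36.2 CPM), Bub1b (7.10 to 75.2 CPM), Kif23 (0.900 to 43.4 CPM) and Cdc20 (1.07 to 38.9 CPM). Of the replication genes not given above, Mcm2, Mcm3, Mcm4, Mcm7, Rrm1 and Tk1 did not overlap, and Mcm6, Tyms, Cdc6, Cdt1 and Gins2 did. Mcm2 ran from 8.72 to 79.5 CPM, Mcm3 from 32.7 to 147 CPM, Mcm4 from 22.0 to 103 CPM, Mcm6 from 30.3 to 169 CPM and Mcm7 from 8.00 to 92.7 CPM. Rrm1 ran from 28.9 to 156 CPM, Tk1 from 1.09 to 21.8 CPM, Cdc6 from 1.21 to 20.3 CPM and Gins2 from 7.32 to 27.1 CPM.

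**Figure D3:**
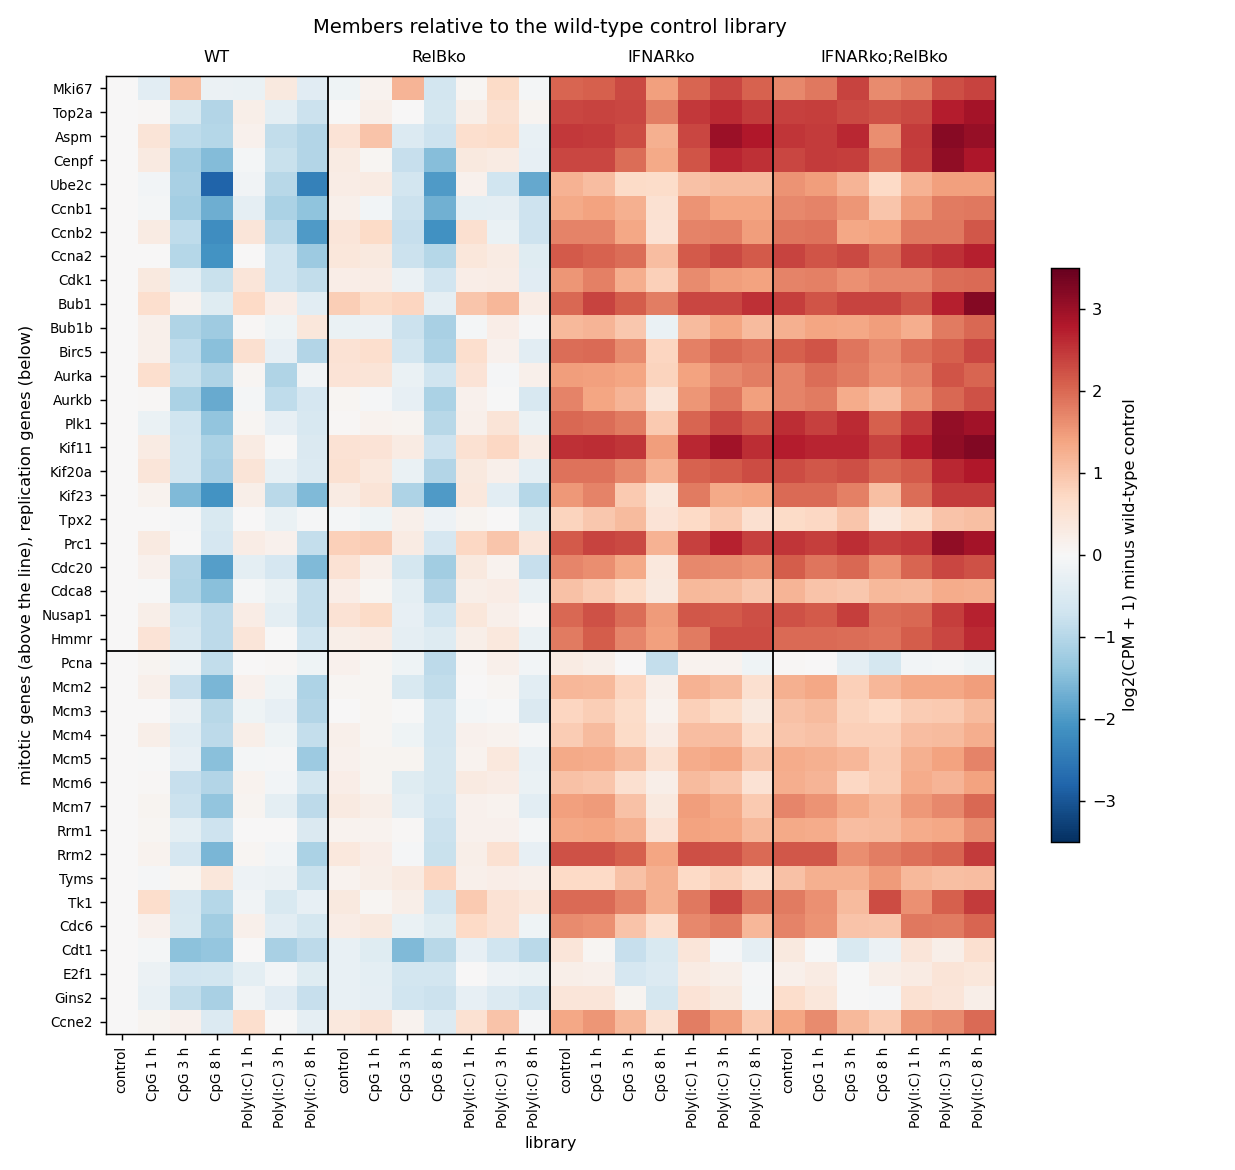
Level of each of the 40 genes in each of the 28 libraries relative to the WT control, as the difference of log2(CPM + 1) (colour, red higher and blue lower), with libraries grouped by genotype and mitotic genes above the horizontal line. The 14 columns of the null genotypes are red for nearly all genes, Pcna, Cdt1, E2f1 and Gins2 are pale, and the CpG 8 h columns of WT and RelBko are the bluest.

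Across the 28 libraries most genes followed their own group closely. The Pearson r of a gene with the mean of the rest of its group, a description over libraries that share genotypes and controls, was highest for Ccna2 (0.995). It was lowest for Pcna (0.356), followed by Tyms (0.691), Cdt1 (0.796), E2f1 (0.824) and Mki67 (0.875). Among 9948 genes outside the list with a mean of at least 5 CPM, Ncapd2, a condensin subunit, was most like the mean of the mitotic genes (r 0.995), followed by Cep55, Tacc3, Kif15, Hmgb2, Shcbp1, Kif2c, Ndc80, Kif4 and Lig1 (0.992 to 0.985). Ncapd2 was also most like the mean of the replication genes (r 0.988), followed by Tacc3, Clspn, Fignl1, Ndc80, Ercc6l, Foxm1, Lbr, Lig1 and Hmgb2 (0.988 to 0.980).

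Loss of RelB moved the same genes far less. Averaged over the IFNAR states, 29 of 40 genes were called higher in RelB-null cells and 0 lower by limma, against 39.7% and 16.9% of all genes tested. The median difference was 0.33 over the 40 genes and 0.09 over all genes. With median-ratio scaling in place of the library total, 17 were called higher and 1 lower. The largest differences were those of Cdc20, the activator of the anaphase-promoting complex (0.58 ± 0.12, adjusted p 0.000415, limma), Plk1 (0.55 ± 0.08), the midzone protein Prc1 (0.51 ± 0.11), Ccna2 (0.50 ± 0.13) and the cytokinesis kinesin Kif23 (0.50 ± 0.15). Mki67 (0.04), Tpx2 (0.02) and Pcna (-0.05) were among the 11 genes that did not pass. Between RelBko and WT, 17 genes were called higher and 0 lower, against 23.5% and 10.2% of all genes, led by Aspm at 0.63 ± 0.22. That count dropped to 6 without the Poly(I:C) 3 h libraries. Between IFNARko;RelBko and IFNARko, 15 were called higher, led by Plk1 at 0.70 ± 0.12, and Pcna was called lower (-0.14 ± 0.05, adjusted p 0.02209, limma), against 35.7% of all genes higher and 17.8% lower, so the share called higher was close to that of all genes. That count was 10 without the CpG 8 h libraries, without the Poly(I:C) 3 h libraries, or without the 2 shallowest libraries. The call of Pcna was lost without the control libraries, or without those at 1 h or 3 h of either stimulus. It was kept without the 8 h libraries of either stimulus.

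CpG lowered cell cycle transcripts by 8 h. Over the 4 genotypes, limma called 37 of 40 genes lower and 1 higher at 8 h than in the controls, against 38.8% of all 12608 genes tested lower and 15.3% higher. The median change was -0.86 on the log2 scale for the 40 genes and -0.17 for all genes. Of the 40, 11 were called at least 2-fold lower, 10 of them mitotic, against 4.62% of all genes. The largest falls were those of Ube2c (-1.62 ± 0.33, adjusted p 0.001737, limma), Kif23 (-1.60 ± 0.24), the mitotic cyclin Ccnb2 (-1.60 ± 0.31), Cdc20 (-1.38 ± 0.22) and Ccnb1 (-1.27 ± 0.19). Mcm7 (-1.01) was the replication gene among the 11. Tk1 (-0.56) and Mki67 (-0.34) did not pass the test. At 8 h 2 of the 4 CpG libraries are the 2 shallowest, and without them 38 genes were called lower and 1 higher. Both are IFNAR-null, so that fit rests at 8 h on WT and RelBko alone and cannot check the fall in null cells.

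Tyms, thymidylate synthase, was the gene that rose (0.51 ± 0.08, adjusted p 5.351e-05, limma). It measured 21.2 CPM in the WT control, 20.5, 22.3 and 28 CPM after CpG and 18.7, 18.1 and 11.9 CPM after Poly(I:C). RelBko cells measured 23 CPM in the RelBko control, 24.6, 26.8 and 36.4 CPM after CpG and 24.1, 25.1 and 24 CPM after Poly(I:C). The CpG 8 h library was the highest of both genotypes. Tyms measured 34.9 CPM in the IFNARko control, 34.9, 44 and 51.7 CPM after CpG and 35, 39 and 33 CPM after Poly(I:C). It measured 44.5 CPM in the IFNARko;RelBko control, 51.3, 51.7 and 61.3 CPM after CpG and 48, 44.9 and 45.8 CPM after Poly(I:C). In these genotypes too the CpG 8 h value was the highest, and the lowest value of the series was that of WT at 8 h of Poly(I:C).

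The changes were in part present at 3 h and were not detected at 1 h. At 1 h of CpG limma called 0 of 40 genes, against 0.389% of all genes higher and 0.119% lower, with 0 genes at an unadjusted p under 0.05 and 0 called by voom. At 3 h it called 15 lower and 2 higher, against 31.9% of all genes lower and 12.4% higher, so the share called lower was close to that of all genes, with a median of -0.42 against -0.15. The count of 17 became 9 without RelBko and 27 without the 2 shallowest libraries. Cdt1, which loads the Mcm helicase and is destroyed in S phase, fell most among the called genes at 3 h (-1.21 ± 0.14, adjusted p 2.956e-06, limma), ahead of Kif23 (-0.93 ± 0.24). Cdc20 (-0.66 ± 0.22), Cenpf (-0.65 ± 0.22) and the survivin gene Birc5 (-0.64 ± 0.18) came next among the called genes. Ccnb2 (-0.75) and Ube2c (-0.74) did not pass. Cdt1 measured 25.9 CPM in the WT control, 24.6, 9.03 and 9.64 CPM after CpG and 26.4, 11.3 and 13.2 CPM after Poly(I:C). It measured 21.5 CPM in the RelBko control, 19.2, 8.22 and 12.7 CPM after CpG and 21, 15.6 and 13 CPM after Poly(I:C). IFNARko cells measured 35.1 CPM in the IFNARko control, 27.3, 14.3 and 17.7 CPM after CpG and 35.2, 25 and 20.7 CPM after Poly(I:C). In each of these genotypes the CpG 3 h value was the lowest. Cdt1 measured 32.9 CPM in the IFNARko;RelBko control, 25.9, 17.5 and 22.5 CPM after CpG and 35.1, 30.2 and 38.6 CPM after Poly(I:C), with its own lowest value also at CpG 3 h. The genes that rose at 3 h were Mki67 (0.84 ± 0.19, adjusted p 0.004431, limma) and Tyms (0.20 ± 0.08). The Mki67 level was above that of the control at 3 h of CpG in all 4 genotypes.

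After Poly(I:C) at most 9 of the 40 genes were called at any time over the 4 genotypes together. At 1 h limma called 0 of 40 genes, against 0.323% of all 12692 genes tested higher and 0.00788% lower, with 0 at an unadjusted p under 0.05 and 0 by voom. At 3 h Mki67 rose (0.51 ± 0.14, adjusted p 0.01951, limma) and Cdt1 fell (-0.54 ± 0.17), against 13.9% of all genes higher and 9.71% lower. Neither was called without RelBko or without IFNARko, 4 genes were called without WT, and voom called 1. At 8 h 9 genes fell and 0 rose, against 24.1% lower and 18.9% higher, so the share called lower was no larger than that of all genes, with a median of -0.26 over the 40 genes and -0.03 over all genes. They were Ube2c (-1.16 ± 0.41), Cdc20 (-0.72 ± 0.23), Gins2 (-0.54 ± 0.09), Cdt1 (-0.53 ± 0.17), Mcm2 (-0.47 ± 0.16), Mcm3, Mcm6, Cdca8 and Pcna (-0.26). The count was 21 without IFNARko;RelBko, 5 without IFNARko, 2 without WT and 2 without RelBko, and voom called 2.

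**Figure D4:**
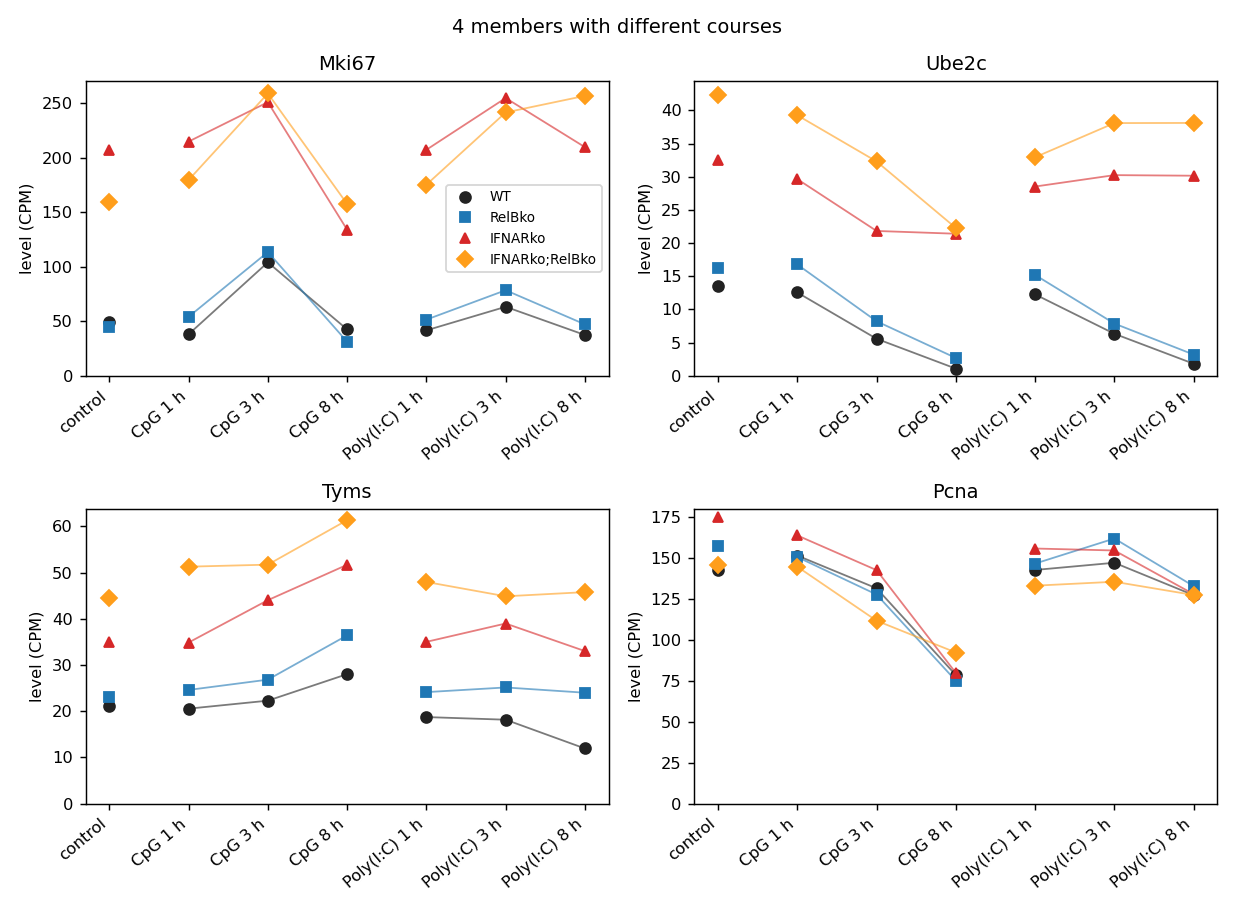
Level in CPM (vertical axes, from 0) of Mki67, Ube2c, Tyms and Pcna in each library, with 1 point per library and lines joining the times of a stimulus. Mki67 peaks at 3 h of CpG in WT, RelBko and IFNARko;RelBko, Ube2c declines to 1.09 CPM in WT at 8 h, Tyms is highest at CpG 8 h in each genotype, and Pcna is lowest there in each genotype.

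CpG and Poly(I:C) were also set against each other at the same time. At 3 h 13 of 40 genes were called lower after CpG and 0 higher by limma, against 31.7% of all 12897 genes tested lower and 8.02% higher, so the share called lower was close to that of all genes. Median-ratio scaling gave 4 lower and 1 higher. The median was -0.41 for the 40 genes and -0.17 for all genes. The largest were Cenpf (-0.73 ± 0.23, adjusted p 0.01792, limma), the checkpoint kinase Bub1b (-0.69 ± 0.22), Cdt1 (-0.67 ± 0.16), Cdc6 (-0.64 ± 0.16) and E2f1 (-0.58 ± 0.10). The 3 h count was 5 without RelBko and 7 without IFNARko. At 8 h 25 were called lower and Tyms was higher (0.70 ± 0.10), against 23.4% lower and 7.48% higher. The largest differences were Bub1b (-1.15 ± 0.22, adjusted p 0.000701, limma), Kif23 (-0.99 ± 0.28), Aurkb (-0.97 ± 0.20), Cenpf (-0.95 ± 0.23) and Plk1 (-0.91 ± 0.16). The 8 h count was 10 without RelBko and 12 without IFNARko. Because both responses use the same 4 control libraries, their values against control are given side by side and not as an overlap.

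The change of the mitotic genes by 8 h was read in each genotype against its own control. That control carries a time of 1 h, so stimulus and time in culture cannot be told apart. The summed mitotic level of the WT control, 276 CPM, compared with 129 CPM after 8 h of CpG and 176 CPM after 8 h of Poly(I:C). In RelBko it went from 315 to 147 and 232 CPM. The IFNARko sum went from 1020 CPM to 599 CPM after CpG and 1055 CPM after Poly(I:C). The IFNARko;RelBko sum went from 1080 CPM to 906 CPM after CpG and 1497 CPM after Poly(I:C). Replication sums at Poly(I:C) 8 h were 363 CPM in WT, 481 CPM in RelBko, 823 CPM in IFNARko and 1282 CPM in IFNARko;RelBko, 0.641, 0.785, 0.760 and 1.14 of their own controls. At CpG 8 h the replication sums were 0.517, 0.580, 0.573 and 0.803 of the control in the same order. For replication genes RelBko and IFNARko thus lay close together with either stimulus.

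The median change of the 24 mitotic genes from control to CpG 8 h was -1.20 in WT, -1.22 in RelBko, -0.86 in IFNARko and -0.34 in IFNARko;RelBko, on the log2 scale. For Poly(I:C) 8 h the medians were -0.83, -0.59, 0.02 and 0.45 in the same order. At Poly(I:C) 8 h in IFNARko;RelBko, 23 of 24 mitotic genes and 14 of 16 replication genes were higher than in that genotype's control. In WT 1 of 24 and 0 of 16 were. Each of these values compares 1 library with 1 library and has no replicate check.

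**Figure D5:**
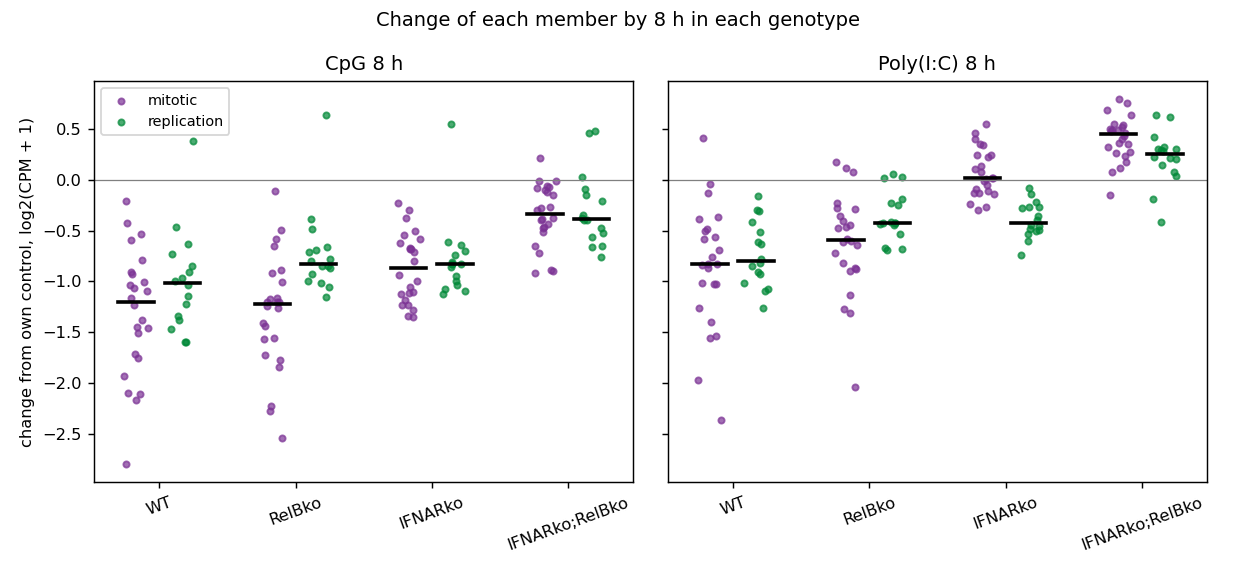
Change of each gene from its own control to 8 h of CpG (left) or Poly(I:C) (right) in each genotype, as the difference of log2(CPM + 1) (vertical axis), with 1 point per gene, purple for mitotic and green for replication genes, and a bar at the median of each group. The mitotic medians rise from -1.20 in WT to -0.34 in IFNARko;RelBko after CpG, and from -0.83 to 0.45 after Poly(I:C).

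The difference of the response itself was tested in a fit of all 28 libraries, taking each response as the mean of its 3 h and 8 h values less the control, in IFNAR-null minus IFNAR-intact cells. For CpG, limma called 12 of 40 genes higher and 0 lower, against 3.27% of all 12972 genes tested higher and 2.99% lower, with a median difference of 0.37 over the 40 genes and 0.05 over all genes. The 12 were 11 mitotic genes and Mcm2. The largest differences were those of Ube2c (1.16 ± 0.19, adjusted p 0.0005521, limma), Kif23 (1.11 ± 0.20), Ccnb2 (1.05 ± 0.24), Ccna2 (0.99 ± 0.16) and Cenpf (0.98 ± 0.24). The 2 shallowest libraries are the null libraries at CpG 8 h. Without them the comparison rests on 3 h alone, 6 genes were called higher and 1 lower, and the Ube2c difference was 0.55 and no longer called. For Poly(I:C), 13 were called higher and 0 lower, against 1.8% and 2.54% of all genes tested, with a median of 0.45 against 0.03. The 13 were 12 mitotic genes and Mcm5. Ube2c (1.46 ± 0.19, adjusted p 5.06e-05, limma), Kif23 (1.25 ± 0.20), Ccnb2 (1.17 ± 0.24), Aspm (1.13 ± 0.26) and Ccnb1 (1.07 ± 0.23) led. Plain eBayes lowered these counts to 7 (CpG) and 6 (Poly(I:C)), and at 8 h alone the Poly(I:C) count was 22. Both comparisons use the same 4 control libraries. The fit leaves 6 residual degrees of freedom.

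The corresponding differences between RelB-null and RelB-intact cells passed the threshold in 0 of 40 genes for CpG and in 0 of 40 for Poly(I:C) by limma. Of all genes tested, 0.301% were called higher and 0.247% lower for CpG, and 0.0463% and 0.0771% for Poly(I:C). At an unadjusted p under 0.05 there were 7 and 10 of the 40 genes, all higher in RelB-null cells, and voom called 0 and 1.

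Other genes of the cell cycle were read from lists of neighbouring function. For comparison, 53.9% of all genes tested were called higher and 15.5% lower in IFNAR-null cells (median 0.15), and 15.3% higher and 38.8% lower at CpG 8 h. Of 46 other mitotic genes, 44 were higher and 1 lower in IFNAR-null cells (median 1.66), with the kinesin gene Kif18b at 2.27 ± 0.09 and the condensin subunit Ncapg at 1.93 ± 0.08. Of the same 46, 37 fell and 1 rose at CpG 8 h, and Racgap1, a partner of Kif23 in cytokinesis, fell by 1.92 and the centromeric histone gene Cenpa by 1.86 on the log2 scale. Of 38 other replication genes, 37 were higher and 1 lower without IFNAR (median 0.85), including the DNA ligase Lig1 (1.41 ± 0.06) and the checkpoint adaptor Clspn (2.00 ± 0.10). At CpG 8 h 29 of the 38 fell and 0 rose, with Gmnn, the inhibitor of Cdt1, at -1.19 ± 0.13 and Dbf4, the activating subunit of the Cdc7 kinase, at -0.84 ± 0.12.

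Of 10 cyclins and kinases of G1, 8 were higher and 1 lower without IFNAR, and Ccnd3, a D-type cyclin, stood at 1.04 ± 0.08. At CpG 8 h 6 of the 10 fell and 2 rose: the D-type cyclin gene Ccnd2 rose by 1.11 ± 0.09 and its kinase Cdk6 by 0.54 ± 0.08, while Cdk4 changed by -0.65 ± 0.10. Of 14 inhibitors of cyclin-dependent kinases and growth arrest genes, 7 were higher and 2 lower without IFNAR, shares close to the 53.9% and 15.5% of all genes. The p18 inhibitor gene Cdkn2c was higher by 1.72 ± 0.08 and fell after CpG (-1.06 ± 0.13), while the p21 gene Cdkn1a rose after CpG (0.94 ± 0.10). Of 19 E2F factors, pocket proteins and mitotic transcription factors, 16 were higher and 0 lower without IFNAR. The mitotic activators Foxm1 (1.86 ± 0.10) and Mybl2 (1.49 ± 0.08) and the atypical E2f7 (1.88 ± 0.08) had the largest differences among the 4 named, and the pocket protein gene Rbl2 stood at 0.70 ± 0.04. At CpG 8 h 9 of the 19 fell and 2 rose, near the 38.8% lower and 15.3% higher of all genes, with Foxm1 at -1.21 ± 0.14 and E2f2 at -2.48 ± 0.32.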

How the data were processed

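The 28 libraries were stranded polyA libraries read from a single end at 50 bp, per the labels' protocols. Processing with cutadapt and edgeR on mm10 is recorded, without versions, per the submitters' processing notes. The aligner, the counting tool, its strand setting and the annotation are not given in the sources used here. For their part, the authors deposited 2 sheets of normalised signal values that equal CPM plus 1, with no factor beyond the library total. Less 1, 100% of values lay within 0.001 read of a whole number of reads. The 4 control columns were identical in both sheets. Entries without a gene name (2161 and 2, at most 0.116% of a library) and 11 duplicated symbols were left out.

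Genotypes are those the labels give, where IFNAR stands for IFNARko. Tests used limma 3.58.1 in R 4.3.3 with statmod 1.5.0 (eBayes with trend and robust) on log2(CPM + 1), for genes that reached 1 CPM in 3 or more of a fit's libraries. Tests were two-sided, with Benjamini-Hochberg adjustment over every gene tested and a threshold of 0.05. Errors are standard errors. The genotype fits used 28 libraries with condition as a term. The response fits used the 4 controls and the 12 libraries of 1 stimulus, and genotype was a term, the comparison of stimuli used 24 libraries, and the comparison of responses used 28. Genotype fits had 18 residual degrees of freedom, response fits 9, stimulus fits 15 and the comparison of responses 6. Scripts were tested on simulated data. Values in every library were given for Mki67, Ube2c, Cdk1, Ccnb1, Aurka, Pcna, Mcm5, Rrm2, E2f1 and Ccne2 and for the genes with the largest and smallest IFNAR difference in each group. Each comparison names its 5 largest called changes per direction and the genes against the majority, and up to 4 genes of each neighbouring list by adjusted p. Tyms and Cdt1 were added in full after their values were seen. The members, gene lists and promoter words were chosen with earlier results of these data known. Reads are not independent molecules.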

Additional observations from a re-analysis of the deposited data

Results flagged for a closer look

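The change from the 1 h control to stimulated libraries differed between IFNAR-null and IFNAR-intact cells, and the difference itself was tested in the limma fit of all 28 libraries. For CpG at 3 and 8 h it was called higher in 12 of the 40 genes, against 3.27% of all genes tested higher and 2.99% lower. Without the 2 shallowest libraries 6 were called higher and 1 lower, with plain eBayes 7 higher, and the Ube2c difference became 0.55 without those libraries and was not called. The difference on the log2 scale was 1.159 for Ube2c, 1.111 for Kif23, 1.046 for Ccnb2, 0.9908 for Ccna2 and 0.9849 for Cenpf. For Poly(I:C) it was called higher in 13 genes, against 1.8% of all genes higher and 2.54% lower, in 6 with plain eBayes and in 22 at 8 h alone. There it was 1.456 for Ube2c, 1.255 for Kif23, 1.168 for Ccnb2, 1.129 for Aspm and 1.075 for Ccnb1. Each value is positive, so the change from control was less negative, or more positive, without the receptor. At 8 h of CpG, Ube2c levels were 1.09 CPM (WT), 2.70 CPM (RelBko), 21.4 CPM (IFNARko) and 22.3 CPM (IFNARko;RelBko). Depth moves with the CpG result, since both null libraries at 8 h are the shallowest, and its part was not tested beyond leaving them out. The macrophage, T and NK, progenitor, mast cell and granulocyte precursor markers also move with genotype. In the same comparison of responses, 2 of 11 macrophage markers were called higher for CpG (C1qc 0.81, C1qb 0.58) and 3 for Poly(I:C) (C1qc 0.92, C1qa 0.85, C1qb 0.54). The granulocyte precursor gene Prtn3 was higher for both (1.36 and 1.73). For CpG the progenitor gene Gata2 (0.93) and the dendritic gene H2-Ab1 (0.29) were higher and Hbb-bt was lower (-1.18). The part of these cell types was not tested.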

How the results depend on the processing

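Counts are of the 40 genes called. With median-ratio scaling (which moved the all-gene median from 0.15 to 0.002 for IFNAR state, from -0.17 to -0.01 for CpG 8 h and from -0.17 to -0.02 for CpG against Poly(I:C) at 3 h), RelB state gave 18 in place of 29, IFNARko;RelBko against IFNARko 10 in place of 16, CpG against Poly(I:C) at 3 h 5 in place of 13, and the difference of the IFNAR effect 3 in place of 0. The ratios of control levels became 3.326 and 3.093 for mitotic and 1.724 and 1.658 for replication genes. Pcna turned from 0.02 to -0.1494 for IFNAR state and to -0.04955 for IFNARko against WT. Without the 2 shallowest libraries, CpG 3 h gave 27 in place of 17, IFNARko;RelBko against IFNARko 10, the difference of the IFNAR effect 3, the CpG response by IFNAR state 7 in place of 12, the Poly(I:C) response by RelB state 1 in place of 0, and Pcna -0.006796. Plain eBayes gave 1 for the difference of the IFNAR effect, 7 for the CpG and 6 for the Poly(I:C) response by IFNAR state (13). The voom fit, chosen after seeing the data like the scaled ratios and the 8 h comparison, gave 6, 11 (CpG 3 h), 1 (Poly(I:C) 3 h), 2 (Poly(I:C) 8 h, in place of 9), 8 (CpG against Poly(I:C) at 3 h) and 1 (Poly(I:C) response by RelB state). At 8 h alone the Poly(I:C) response by IFNAR state gave 22, and those by RelB state 2 for CpG and 1 for Poly(I:C). No filter and a pseudocount of 0.25 kept every count within 1.5 times. The cause of these shifts was not tested.

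Leaving out 1 condition or genotype in turn gave 6 to 20 (RelBko against WT), 10 to 15 (IFNARko;RelBko against IFNARko), 0 to 2 (difference of the IFNAR effect), 9 to 24 (CpG 3 h), 0 to 4 (Poly(I:C) 3 h), 2 to 21 (Poly(I:C) 8 h), 5 to 17 and 10 to 29 (CpG against Poly(I:C) at 3 and 8 h), and -0.006796 to 0.03507 for Pcna by IFNAR state. The 39 genes for IFNAR state were called each time. Among single named genes, 740 values under alternatives kept direction and call, 72 lost the call, 6 gained it and 4 turned. The edgeR count test was not run, and voom was fitted to the recovered reads. Leaving out a library was not run for the comparisons of responses. No paired analysis was possible because each group holds 1 library and the labels carry no replicate numbers. Depth limits Aspm, Cenpf, Ccnb1, Ccnb2, Kif23 and Plk1 most, which held under 10 reads in at least 1 library.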

Other observations

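Lists of neighbouring genes were read in the comparison of responses between IFNAR states, where 3.27% of all genes were called higher and 2.99% lower for CpG, and 1.8% and 2.54% for Poly(I:C). Of 46 other mitotic genes, 10 were called higher for CpG and 9 for Poly(I:C), with the condensin gene Ncapd2 at 0.62 ± 0.12 and 0.70 ± 0.12. Of 19 E2F factors, pocket proteins and mitotic transcription factors, the CpG response was called higher without IFNAR in 2 and lower in 1. E2f2 differed by 1.31 ± 0.18 (SE), Myc by 0.81 ± 0.15 and the pocket protein gene Rbl1 by -0.74 ± 0.16 on the log2 scale (adjusted p 0.005608 for Rbl1, limma). Of 14 inhibitors and growth arrest genes 3 were called lower: Ccng2 (-0.51 ± 0.13), Cdkn1a (-0.38 ± 0.10) and Gadd45b (-0.52 ± 0.15). For Poly(I:C) 2 of the 14 were lower, Cdkn1a (-0.59 ± 0.10) and Ccng2 (-0.55 ± 0.13), and of the 19 factors E2f2 was higher (1.00 ± 0.18) and Rbl1 lower (-0.62 ± 0.16). The D-type cyclin gene Ccnd3 was the called gene of G1 for CpG (0.68 ± 0.11) and for Poly(I:C) (0.50 ± 0.11). Of 38 other replication genes, Dck, the deoxycytidine kinase of nucleotide salvage, was called lower for CpG (-1.67 ± 0.21) and for Poly(I:C) (-1.27 ± 0.21), and Chaf1b, a chromatin assembly factor subunit, was called higher for Poly(I:C) (0.72 ± 0.20).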
